A study of Mus musculus with 2 samples.

Results

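Genes of transport in the primary cilium were examined in embryonic mouse limb as a set of 41 genes named by symbol: subunits of the 2 intraflagellar transport (IFT) complexes and of their kinesin-2 motor, the BBSome and its chaperonin-like assembly factors, proteins of the transition zone and centriole, and proteins of the ciliary membrane. The genes were chosen by function and symbol, with earlier results of these data known. All 41 were found among the 55536 gene entries of the deposited GENCODE M21 tables. The samples were 2 RNA-seq libraries of whole limb from embryos of the B6NCrl strain, 12.5 days old, both sexes mixed. Replicate 1 pooled 88 embryos and replicate 2 pooled 68, and 10 ng of total RNA went into oligo-dT primed SMARTer cDNA, Nextera fragmentation and ERCC spike-ins in both cases. No genotype change, treatment or second age was given, so the 2 libraries describe 1 condition, and any p-value below compares 2 libraries.

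The primary cilium is a single, non-motile, microtubule-based projection of most vertebrate cells. Kinesin-2 carries trains of IFT-B and IFT-A from its base to its tip and dynein-2 returns them, while the BBSome rides on the trains and takes membrane proteins out of the cilium. In the limb bud, vertebrate Hedgehog signalling passes through this organelle, and mutations in many of these genes cause polydactyly, short ribs or short limbs in mice and people (Bardet-Biedl, Joubert, Ellis-van Creveld and related syndromes).

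Summed over genes, expected counts reached 29633457 and 30118921 in replicates 1 and 2. At these depths 1 TPM, a level normalized for transcript length and sequencing depth, meant 37.5 and 37.9 reads from a 2000-nt transcript. Spike-ins held 7.34% and 5.13% of TPM, and the common biological coefficient of variation of the libraries was 7.20%. All 10 limb markers examined, among them Msx1, Prrx1 and Tbx5, were at 1 TPM or more in both libraries. So were 17 of 20 markers of other cell types, and 58.1% of protein-coding genes. These other markers were led by the embryonic globin Hbb-y at 7123 and 7126 TPM and by the keratin Krt14 at 125 and 115 TPM. The liver marker Afp (3.97 and 2.35 TPM) and the heart marker Myh6 (2.57 and 1.40 TPM) passed. Alb of liver, Nkx2-5 of heart and the neuronal Neurod1 (0 and 0.27 TPM) did not. Some markers differed between the pools. In replicates 1 and 2, Tbx5 was at 39.96 and 28.38 TPM, Pitx1 at 135.56 and 163.98, and Tbx4 at 30.6 and 35.1. Tubb3 was at 7.13 and 11.51 TPM and Stmn2 at 5.66 and 8.79. Each had an adjusted p under 0.05 in the exact test below, which covers counting error only. So had the limb markers Msx1, Shox2 and Hoxd13, and Krt14, Myog, Pecam1, Cdh5 and Afp of the other cell types. The same held for 19.0% of all genes tested. Prrx1 was close, at 159.51 and 154.78 TPM. No marker was called at the 2-fold rule. Whether the pools differed in tissue composition was not tested. The samples are whole limbs, so the cells that carry each RNA are not known. A gene expressed by few cells cannot be told apart from one with little RNA in every cell.

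All 41 genes were at 1 TPM or more in both libraries, where the same held for 58.1% of 22028 protein-coding genes and 27.3% of all 55536 entries. The 41 genes were chosen with earlier results of these data known, so their detection is not independent of that choice. Their median level was 17.76 TPM, below the median of 22.4 TPM of the 12802 protein-coding genes detected in both libraries, and 16 of the 41 lay above that median. Levels were moderate: 30 of 41 lay inside the interquartile range of detected protein-coding genes, from 7.62 to 54.5 TPM. At a stricter minimum of 10 TPM in both libraries, 28 of 41 passed. The highest mean, 114 TPM for Ift46, was 63.7 times the lowest, 1.80 TPM for Gpr161. Both ends changed without retained-intron, nonsense-mediated decay and under-300-nt transcript entries, a removal described below: the highest was then Ift20 at 78.1 TPM, with Ift46 at 62.1, and the lowest Tctn1 at 0.575 TPM. Each member rested on 147 to 3240 reads per library.

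Groups of members stood at different levels, with IFT-B and kinesin-2 at the top and the transition zone and chaperonin-like genes at the bottom. Median TPM was 45.2 for the 7 IFT-B core genes, 41.0 for the 3 kinesin-2 genes, 33.9 for the 4 peripheral IFT-B genes, 23.3 for the 6 IFT-A genes, 19.1 for the 5 membrane and signalling genes, 14.4 for the 7 BBSome subunits, 9.81 for the 6 transition zone and centriole genes and 7.83 for the 3 chaperonin-like genes. The ranges of these groups overlapped widely. Without the removed entries the peripheral IFT-B median was 21.99 TPM, beside 20.5 for IFT-A, and the transition zone median of 6.93 TPM came below the chaperonin-like 7.83. In the order of all members, 18 of 40 neighbouring genes did not overlap between libraries; for the remainder the order was within the spread. Across the 41 genes, TPM was lower for longer transcripts (Spearman's rho -0.56, across genes that share 2 libraries and whose TPM is itself divided by length), against -0.28 across detected protein-coding genes. Reads not divided by length had no such order (rho -0.01).

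**Figure D1:**
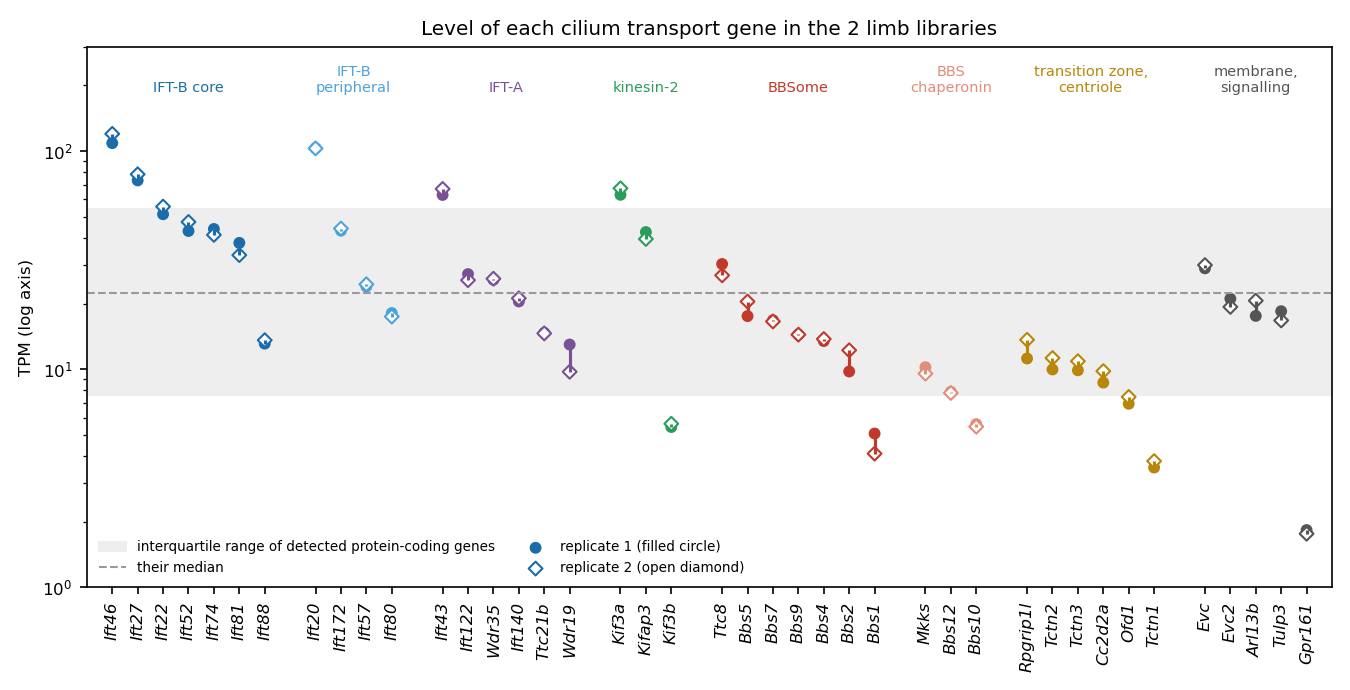
TPM (log axis) of each of the 41 genes in replicate 1 (filled circle) and replicate 2 (open diamond), grouped by role and ordered by mean within a group; the grey band is the interquartile range of detected protein-coding genes and the dashed line their median. IFT-B genes reach 114 TPM, while 6 genes (Kif3b, Bbs1, Bbs10, Tctn1, Ofd1 and Gpr161) lie below the band in both libraries.

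IFT-B is the complex of trains moving to the tip. Ift46 stood first of all members, with 108.75 and 119.93 TPM in replicates 1 and 2 (mean 114 ± 7.91, SD, n = 2). Ift27, a small GTPase of the complex, was at 73.4 and 78.3 TPM. Ift22, the other small GTPase, was at 51.3 and 55.6 TPM, 1.42-fold below Ift27, and the 2 genes did not overlap. Ift52, a scaffold of the core, was at 43.0 and 47.3 TPM. Ift74 and Ift81, whose proteins pair to bind tubulin, were close to each other, at 43.9 and 41.3 TPM and at 37.9 and 33.4 TPM. Their 1.20-fold difference was set beside the spread between libraries. The spread was taken as the 95th percentile of the absolute log2 TPM difference among the 500 genes nearest in level. A pair was called past the spread only where its ratio had 1 direction and exceeded that value in both libraries. Ift74 over Ift81 exceeded the spread of 0.275 in replicate 2 (log2 ratio 0.308) and not in replicate 1 (0.212), so it was not called. Ift74 over Ift81 came past it in reads not divided by length (1.32-fold) and without the removed entries (1.60-fold). Ift88, the gene mutated in the Oak Ridge polycystic kidney mouse, was the lowest of the core with 13.1 and 13.6 TPM, and Ift52 exceeded it 3.38-fold (5.61-fold without the removed entries).

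Among the peripheral subunits, Ift20, which also serves at the Golgi, was the second most abundant member with 103 TPM in each library (103.25 and 102.89). Ift57, which sits beside it in the complex, was at 23.9 and 24.5 TPM, 4.26-fold lower (2.19-fold in reads). Ift172 was at 43.2 and 44.2 TPM and Ift80 at 18.1 and 17.4 TPM. That 2.46-fold difference was past the spread, and it was 1.28-fold and inside it without the removed entries.

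IFT-A is needed for the return of trains and for the entry of membrane proteins. Its smallest subunit, Ift43, led with 62.9 and 67.1 TPM. Ift122 (27.3 and 25.6 TPM), Wdr35 (25.7 and 26.0 TPM), Ift140 (20.4 and 21.1 TPM) and Ttc21b (14.7 and 14.6 TPM) followed. Wdr19 was lowest, and it differed most between libraries of all members, at 13.0 TPM in replicate 1 and 9.73 in replicate 2, a 1.33-fold ratio. The 1.27-fold difference of Ift122 and Ift140, 2 core subunits, exceeded the spread in 1 library and not in the other, so it was not called, and in reads Ift140 was the higher by 1.05-fold. Wdr35 exceeded Wdr19 by 2.30-fold, past it.

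Kinesin-2 is a heterotrimer of the motors KIF3A and KIF3B with the adaptor KAP3. Its 3 genes were far from equal. Kif3a (chr11:53567379-53601967, plus strand, mm10) was at 63.0 and 67.5 TPM and Kifap3 at 42.5 and 39.5 TPM, whereas Kif3b was at 5.43 and 5.62 TPM. Kif3a thus exceeded Kif3b 11.8-fold, the widest of 21 pairs of partner genes compared. It was not the widest without the removed entries, where the ratios of Tctn3 and Tctn2 to Tctn1 were wider. Nor was it in reads not divided by length, where the ratio of Tulp3 to Gpr161 was wider (4.34-fold). The libraries rested on 2108 and 2291 reads for Kif3a against 593 and 620 for Kif3b, whose single transcript of 5635 nt is long. The direction held in each setting that could change it. The ratio was 11.1 with the GENCODE M4 annotation, 3.62 in reads not divided by length and 8.06 without retained-intron, decay and very short entries. The 1.59-fold excess of Kif3a over Kifap3 was 1.09-fold without those entries and inside the spread, and in reads Kifap3 was the higher by 1.43-fold, past it.

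The BBSome consists of 8 subunits, of which 7 were among the members. Ttc8 (BBS8) was highest with 30.4 and 26.9 TPM, and Bbs5, whose product binds phosphoinositides, followed at 17.5 and 20.4 TPM. Bbs7 (16.8 and 16.6 TPM), Bbs9 (14.4 in both) and Bbs4 (13.5 and 13.8 TPM) lay close together, and Bbs2 was at 9.76 and 12.2 TPM. Bbs1, whose product binds the GTPase ARL6 and recruits the complex to membranes, was lowest with 5.07 and 4.10 TPM. Bbs4 exceeded Bbs1 2.98-fold and Ttc8 exceeded Bbs4 2.10-fold, both past the spread; the first ratio was 6.08 in M4 and 4.84 without the removed entries. Bbs2 forms the core of the assembly with Bbs7 and Bbs9. Its 1.53-fold difference from Bbs7 exceeded the spread in 1 library and not in the other, so it was not called, but it was past the spread in 5 of 7 alternative settings, up to 1.90-fold without the removed entries. The 1.32-fold difference from Bbs9 was not past it, except in reads (1.69-fold) and without those entries (1.72-fold). The 3 assembly factors were Mkks (BBS6) at 10.2 and 9.54 TPM, Bbs12 at 7.88 and 7.78 TPM and Bbs10 at 5.60 and 5.45 TPM, with neither the 1.26-fold Mkks to Bbs12 ratio nor the 1.42-fold Bbs12 to Bbs10 ratio past the spread. Mkks over Bbs12 was 3.80-fold in M4 and 1.53-fold in reads, past it in both.

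The transition zone is the gate at the ciliary base. The tectonic genes Tctn2 (9.97 and 11.3 TPM) and Tctn3 (9.88 and 10.9 TPM) were indistinguishable at 1.02-fold, and Tctn1 lay 2.89-fold below Tctn2 and 2.83-fold below Tctn3 with 3.54 and 3.79 TPM. Those ratios were 14.6 and 16.4 without the removed entries, and they were not past a spread taken at the 99th percentile. Rpgrip1l, a scaffold of the zone, was at 11.2 and 13.6 TPM, Cc2d2a at 8.68 and 9.80 TPM, and Ofd1, a centriolar protein gene on the X chromosome, at 6.94 and 7.46 TPM. Cc2d2a and Rpgrip1l differed by 1.34-fold, with Rpgrip1l the higher. The log2 ratio of Cc2d2a to Rpgrip1l exceeded the spread of 0.474 in replicate 2 (-0.477) and not in replicate 1 (-0.366). The pair was therefore not called. With a spread taken at a lower percentile or from fewer nearest genes, Rpgrip1l was the higher past it. The order was the reverse in M4, inside the spread. It was also the reverse in reads and without the removed entries, as given below.

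Among genes of the ciliary membrane and Hedgehog signalling, Evc (29.0 and 30.01 TPM) and Evc2 (21.04 and 19.3 TPM) encode partner proteins that act below Smoothened. They lie head to head on chromosome 5 with 1604 nt between them, Evc at chr5:37289098-37336894 on the minus strand and Evc2 at chr5:37338499-37425055 on the plus strand. Evc exceeded Evc2 by 1.46-fold, past the spread, by 1.08-fold without the removed entries and by 1.02-fold in reads, both inside it. Arl13b, a GTPase of the ciliary membrane, was at 17.6 and 20.6 TPM. Tulp3, the adaptor that brings receptors into the cilium with IFT-A, was at 18.4 and 16.7 TPM. Gpr161, a receptor that it carries and that holds Hedgehog targets down, was at 1.83 and 1.76 TPM, 9.79-fold under Tulp3 (4.34-fold in reads). Its transcript of 6862 nt gave 244 and 237 reads, about as many as Bbs1 had (247 and 249).

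Of the 21 pairs, 13 differed past the spread between libraries. How often pairs of unrelated genes differ past it was not computed, so this count shows nothing particular to partner genes. Of these, 7 stayed past the spread under all 7 alternative settings: Kif3a over Kif3b, Ift27 over Ift22, Ift52 over Ift88, Ift20 over Ift57, Bbs4 over Bbs1, Ttc8 over Bbs4 and Tulp3 over Gpr161. They also kept their direction in M4, in reads and without the removed entries. The other settings alter the spread alone, so direction could not change in them.

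No member was called between the 2 pools. Rounded expected counts were compared gene by gene with an exact binomial test, two-sided and scaled by TMM factors from edgeR, and 0 of 41 were called at an adjusted p under 0.05 (Benjamini-Hochberg) with a 2-fold TPM ratio, against 1.02% of the 15926 genes tested (163 genes). The count was also 0 with DESeq2 size factors and with total counts, while 7 of 41 (17.1%) had an unadjusted p under 0.05, against 29.5% of all genes. With no minimum fold, 4 were past the adjusted threshold, where 19.0% of all genes were. These were Kifap3 (3240 and 3042 reads, adjusted p = 0.0156 in the exact test), Wdr19 (916 and 804 reads), Tctn2 (485 and 582 reads) and Ift74 (1750 and 1623 reads). The test covers counting error only. On the log2(TPM + 1) scale the median difference, replicate 2 less replicate 1, was 0.03 over the members and 0.01 over all genes. The median absolute difference was 0.091 and 0.104, and 23 members were higher in replicate 2 and 18 in replicate 1. Of all genes tested, 53.1% were higher in replicate 2.

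**Figure D2:**
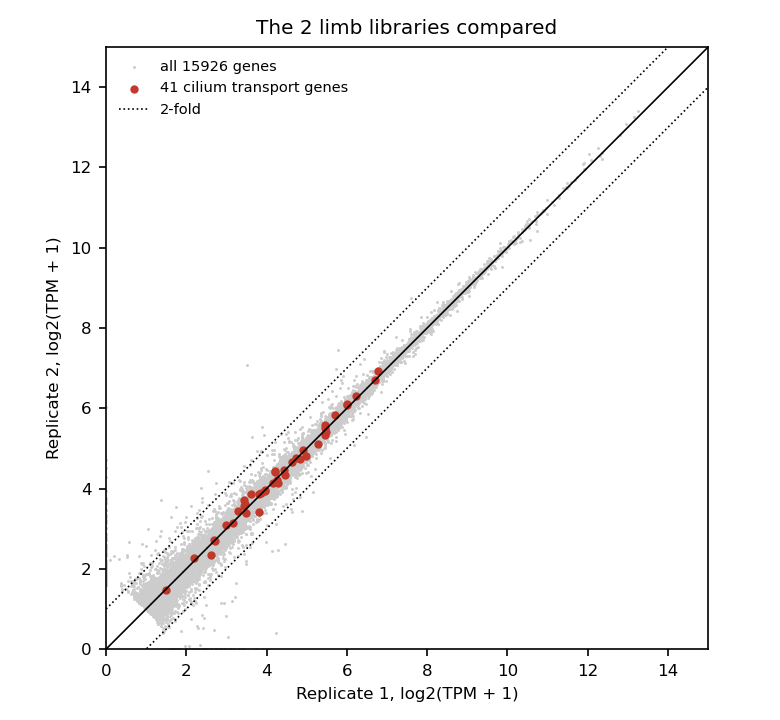
Level in replicate 2 against replicate 1, both as log2(TPM + 1), for all 15926 genes tested (grey; mean TPM at least 1) and the 41 cilium transport genes (red); the solid line is equality and the dotted lines are 2-fold on this scale. Every red point lies between the dotted lines, and the largest TPM ratio among them is 1.33.

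Genes that work with these proteins were also present. Of 11 other IFT and BBSome-related genes, 10 reached 1 TPM in each library; the median of the list was 22.2 TPM. Bbip1, the small eighth BBSome subunit, led with 70.0 and 74.4 TPM and Lztfl1, a BBSome regulator, followed with 43.9 and 39.9 TPM, while Ttc30a2, a near-copy of Ttc30a1, was at 0.47 TPM in both. All 8 dynein-2 genes passed. Dynll1 (1483 and 1450 TPM) and Dynlt1b (419 and 421 TPM) are light chains shared with cytoplasmic dynein, and the heavy chain of the ciliary motor itself, Dync2h1, was the lowest with 17.4 and 19.7 TPM. All 17 other transition zone genes passed with a median of 15.3 TPM, from Iqcb1 (57.9 and 58.8 TPM) and Tmem216 (53.9 and 50.3 TPM) to Nphp4 (3.39 and 2.91 TPM). All 11 membrane targeting genes passed with a median of 49.1 TPM, led by the trafficking GTPases Rab11a (197 and 188 TPM) and Arl3 (135 and 134 TPM), with Cys1 lowest at 2.01 and 1.04 TPM. All 13 basal body and assembly genes passed with a median of 25.1 TPM, from Odf2 (69.1 and 80.6 TPM) and Pcm1 (51.6 and 55.0 TPM) to the kinase gene Ttbk2 (6.14 and 5.01 TPM). None of the genes on these lists was called between the libraries at the 2-fold rule.

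Genes of motile cilia were mostly near zero. Of 22 axonemal and multiciliated-cell genes, 5 were at 1 TPM in both libraries, and their median was 0.255 TPM. Rsph9 (9.95 and 7.57 TPM) and Ccdc40 (6.77 and 6.99 TPM) led. Foxj1, the master regulator of motile cilia, had 7 reads in each library (0.14 TPM). For Mcidas, which drives multiciliated fate, 0 reads were counted; a limit of 3 reads puts it at no more than 0.0667 and 0.0660 TPM. Ccdc153 was likewise without reads, a limit of 0.260 and 0.257 TPM. These limits cover counting error only.

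**Figure D3:**
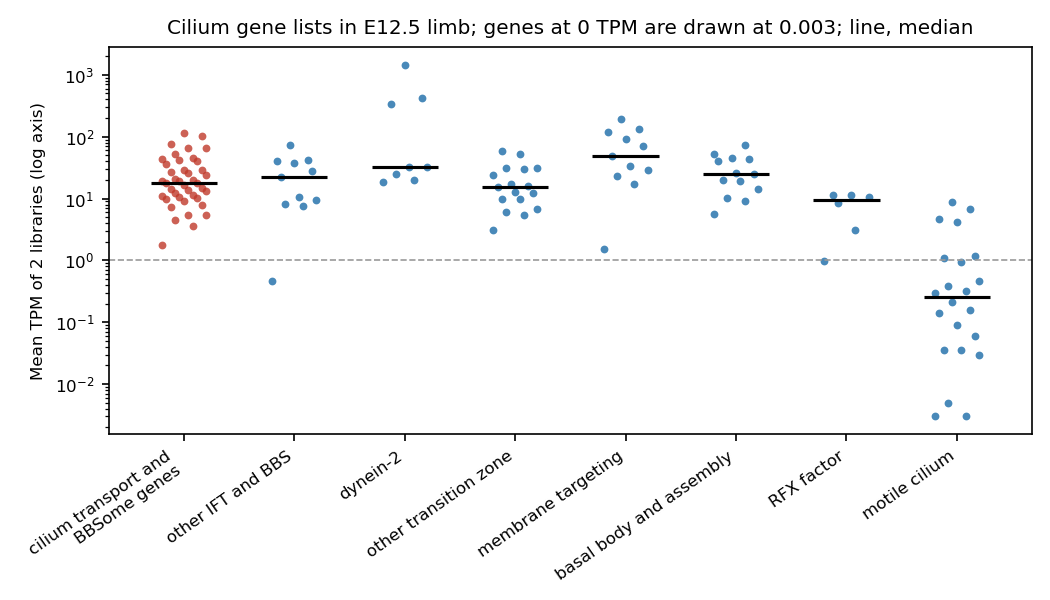
Mean TPM of the 2 libraries (log axis) for each gene of 8 lists, with the median as a black line and 1 TPM dashed; genes at 0 are drawn at 0.003. The 41 cilium transport genes (red, median 17.76) lie with the other lists of primary cilium machinery, and the motile cilium list has a median of 0.255.

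RFX factors bind the X-box, a pair of inverted arms found upstream of many ciliary genes. Rfx3 (11.4 and 11 TPM) and Rfx5 (12.0 and 10.4 TPM) had the same mean of 11.2 TPM, and Rfx7 (11.1 and 9.88 TPM) and Rfx1 (8.69 and 8.04 TPM) were close. Rfx2 was at 2.84 and 3.27 TPM and Rfx4 at 1.01 and 0.94 TPM, so 5 of 6 passed the minimum in both. Promoters of 300 bases, 250 before to 50 after a RefSeq start on GRCm38.p6, were given for 38 of the 41 members. An arm of it, GTTGCC, read on both strands, was in 15 of the 38 (39.5%), against 14.6% of detected protein-coding genes with a promoter and 14.1% of all genes with one. The 15 were Ift27, Ift57, Ift88, Ift140, Ift172, Wdr35, Kif3a, Bbs1, Bbs5, Bbs7, Tctn1, Tctn2, Tctn3, Arl13b and Evc. Both arms facing each other at a gap of 2, GTTNCCNNGGNAAC, a motif that can overlap the single arm, was in Bbs7 and Tctn1 (0.632% of detected protein-coding genes). The arm followed by ATGG, GTTGCCATGG, was in Tctn2 (0.602%). The letters were chosen after levels were known, and a match is a string and not a measured site. The windows below are the 3 with the longer strings, and Tctn3 and Ift57 picked from the single-arm matches. Capitals mark the match. In these last 2 windows ggtaac follows the match, which fits the facing arm GGNAAC at a gap under 2. Of the single-arm matches in members, these 2 alone have ggtaac in the 8 bases after the match, so they are not typical. Gaps other than 2 were not searched, so the count with both arms covers that gap only.
Bbs7, chr3:36613489-36613518, minus strand, ending 108 bases before the start: gcgccccgGTTGCCTTGGAAACcggccagc
Tctn1, chr5:122264411-122264432, minus strand, after the start: ctgtgactGTTGCCCGGGCAAC
Tctn2, chr5:124598754-124598779, plus strand, after the start: gattggtgGTTGCCATGGctgcaggc
Tctn3, chr19:40612358-40612379, minus strand, ending 135 bases before the start: tcccagcgGTTGCCaggtaacg
Ift57, chr16:49699226-49699247, plus strand, ending 55 bases before the start: gccctgcgGTTGCCtggtaacg
Of the 17 single-arm matches in members, 9 lay wholly upstream of the start. Carriers ranged from Ift27 near the top of the order to Tctn1 near its end.

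The deposited transcript tables hold 245 annotated transcripts of the 41 genes. In 38 of them the transcript of highest mean TPM was annotated protein-coding. The 3 exceptions (7.32%) were Kif3a, Tctn1 and Tctn2, against 9.80% of detected protein-coding genes. Retained-intron entries held over 10% of TPM in 18 members (43.9%), against 30.7% of detected protein-coding genes; the median share was 7.48% in members and 1.98% in those genes. In reads the same threshold was passed by 11 members (26.8%), against 20.9% of detected protein-coding genes. Ift172 had the largest share, 54.7% ± 1.8 (SD, n = 2) of TPM and 11.8% of reads. Its full-length transcript Ift172-201 was at 19.8 and 18.8 TPM, on 2070 and 1989 of the gene's 2336 and 2277 reads.

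**Figure D4:**
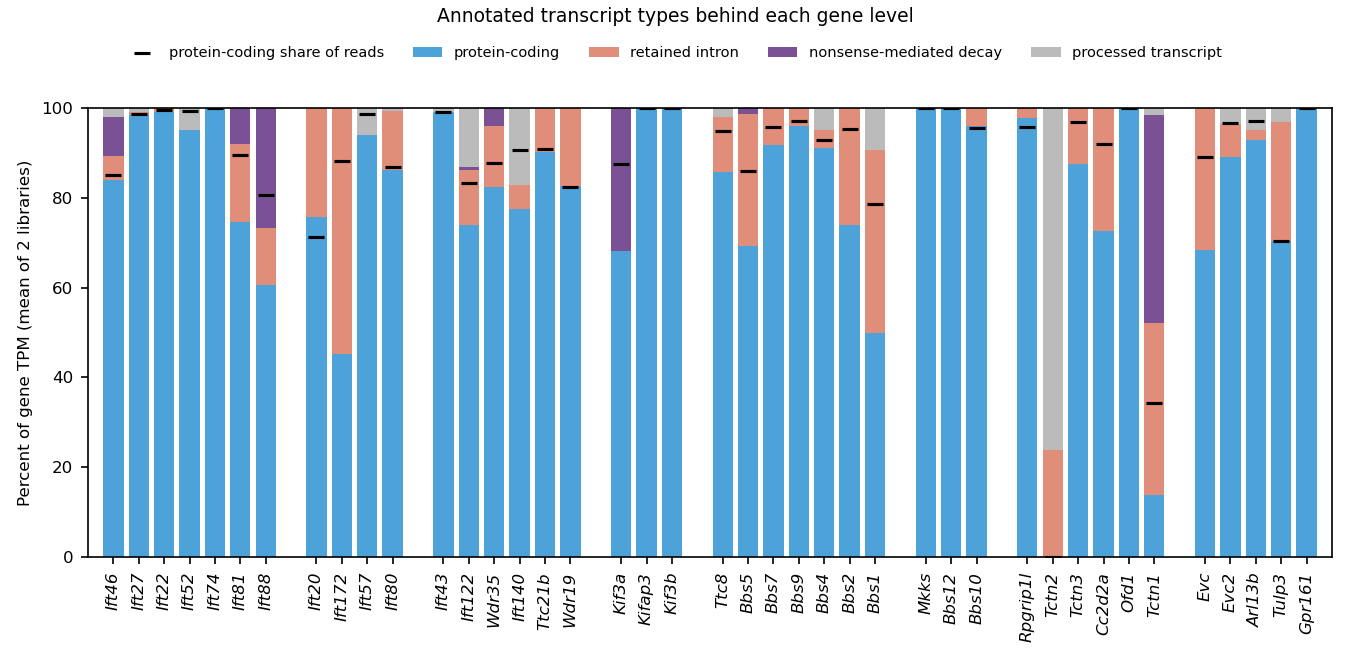
Percent of each gene's TPM (mean of 2 libraries) in transcripts annotated as protein-coding, retained intron, nonsense-mediated decay or processed transcript, genes ordered as in the plot of levels by role; black dashes give the protein-coding share of reads. Ift172, Bbs1, Tctn1 and Tctn2 have 50% or less of TPM in protein-coding entries, while for Ift172 the dash stands at 88.2%.

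Kif3a was led in TPM by Kif3a-206, a 770-nt entry annotated to nonsense-mediated decay, with 19.5 and 22 TPM (31.8% of the gene) on 258 and 294 reads. In reads the protein-coding Kif3a-203 led, with 983 and 966. The full-length Kif3a transcripts differ in 2 small cassettes, both in coding sequence. The first is an exon of 9 nt at chr11:53590717-53590725, and the second is a 21-nt start of the next exon at chr11:53593374-53593394 (plus strand, mm10). They are shown as joined in Kif3a-203, with 24 flanking bases; capitals mark the 9 nt in the upper line and the 21 nt in the lower.
Kif3a 9-nt exon: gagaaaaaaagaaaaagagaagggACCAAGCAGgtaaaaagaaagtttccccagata
Kif3a 21-nt exon start: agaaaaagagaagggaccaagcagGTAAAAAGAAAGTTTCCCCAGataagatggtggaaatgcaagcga
Transcripts holding the 9 nt made up 64.0% of the TPM of the 4 transcripts spanning it in replicate 1 and 89.0% in replicate 2 (76.5% ± 17.6, SD, n = 2). For the 21 nt the shares were 84.4% and 53.4% (68.9% ± 21.97). The libraries thus disagreed on both, and which of Kif3a-201 (522 and 180 reads) and Kif3a-208 (222 and 750 reads) carried the remainder was not resolved; the Kif3a gene level was steady at a ratio of 1.07.

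Kifap3 had 2 transcripts, and here the libraries were close. Kifap3-202, which adds a 66-nt exon at chr1:163912072-163912137, made up 18.2% and 19.2% of TPM (18.7% ± 0.67, SD, n = 2) on 599 and 591 reads. The first 43 nt of that exon are coding, and they are printed since they mark the minor form.
Kifap3-202 exon, coding part, chr1:163912072-163912114, plus strand: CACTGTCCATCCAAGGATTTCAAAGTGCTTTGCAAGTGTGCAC

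Tctn1 was led by Tctn1-203, a decay-annotated transcript that skips an 86-nt coding exon, with 46.3% of TPM on 65.3 and 76.9 reads. The protein-coding Tctn1-201, which keeps the exon, had 13.9% of TPM on 46.3 and 66.8 reads. Over the 3 transcripts spanning the exon, the share with it was 21.1% and 23.4% of TPM (22.3% ± 1.6, SD, n = 2). In reads this was 46.3 of 112 and 66.8 of 145. A length of 86 is no multiple of 3, so the frame shifts where it is skipped.
Tctn1 86-nt exon, chr5:122247532-122247617, minus strand: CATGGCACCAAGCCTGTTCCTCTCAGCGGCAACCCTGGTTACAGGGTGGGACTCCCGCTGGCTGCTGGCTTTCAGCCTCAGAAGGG
Exons of Hvcn1, on the opposite strand, overlap 1574 nt of the Tctn1 exons, and the use of strand in counting was not given in the sources used here, so reads of the 2 genes could not be told apart there. Without retained-intron, decay and very short entries, Tctn1 was at 0.42 and 0.73 TPM, and 40 of 41 members were left at 1 TPM.

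Tctn2 is typed as a processed transcript in M21, with no coding sequence, although RefSeq lists it as protein-coding. Its lead, Tctn2-207, held 76.1% of TPM on 398 and 446 reads and bears a tag for an error in the genome sequence. It differs within its exons from Tctn2-201 by 1 base, at chr5:124624335, which Tctn2-201 skips as a gap. The base is the capital in the line below, with 24 flanking bases.
Tctn2-207, plus strand: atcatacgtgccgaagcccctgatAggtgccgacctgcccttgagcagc
The TPM of Tctn2-207 lay above its credibility interval in the authors' deposited table in both libraries, 7.65 against 1.48 to 7.15 in replicate 1 and 8.49 against 1.98 to 7.84 in replicate 2, so its division from such near-copies is uncertain. The gene as a whole had 485 and 582 reads, close to the 468 and 498 of Tctn3.

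A second transcript of 25% or more of TPM was found in 10 members (24.4%), against 27.0% of detected protein-coding genes, with shares from 25.7% to 38.9%. Ift46 was led by Ift46-202 (45.8 and 45.5 TPM). Its second, Ift46-209, is a 229-nt entry with 31.7% of TPM but 5.63% of reads, and without entries under 300 nt and those of decay or retained introns Ift46 was at 62.1 TPM, below Ift20 (78.1 TPM), Ift27 and Ift43. Ift20 was shared between Ift20-203 and Ift20-202, which have the same coding sequence, and the lead differed between libraries: Ift20-202 in replicate 1 (43.6 and 32.0 TPM) and Ift20-203 in replicate 2 (36.1 and 41.2 TPM). Ift22 was led by Ift22-201 with 41.4% of TPM, followed by Ift22-204 with 26.5%, while in reads the 3071-nt Ift22-205 led. Arl13b-201 (10.1 and 10.48 TPM) was followed by the 867-nt Arl13b-204 (6.19 and 8.65 TPM). Bbs9-201 and Bbs9-210, with 37.8% and 31.4% of TPM, have the same coding sequence.

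Ift122 was the other member whose lead changed between libraries, from Ift122-203 in replicate 1 (11.6 and 7.86 TPM) to Ift122-201 in replicate 2 (6.85 and 12.0 TPM). These 2 differ in coding sequence by 3 nt at an exon start, chr6:115916970-115916972 on the plus strand, capital below with 24 flanking bases.
Ift122-201: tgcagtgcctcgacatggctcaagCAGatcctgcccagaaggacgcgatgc
Ift122-201, the single one of 6 spanning transcripts with the 3 nt, made up 30.2% and 53.1% of their TPM (41.7% ± 16.2, SD, n = 2), so the share was not settled by these libraries. The remaining members with such a second transcript were Cc2d2a, Rpgrip1l, Tctn1 and Wdr19. Of Rpgrip1l TPM, 69.1% lay in a 278-nt entry with 24.5 and 36.4 reads, while the 7009-nt Rpgrip1l-201 had 427 and 449 reads and 3.13 and 3.26 TPM. The gene level of 12.4 TPM is therefore mostly a few reads divided by a short length. Without such entries Rpgrip1l was at 3.57 TPM, and Cc2d2a exceeded it 1.87-fold, past the spread, the reverse of the order above.

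**Figure D5:**
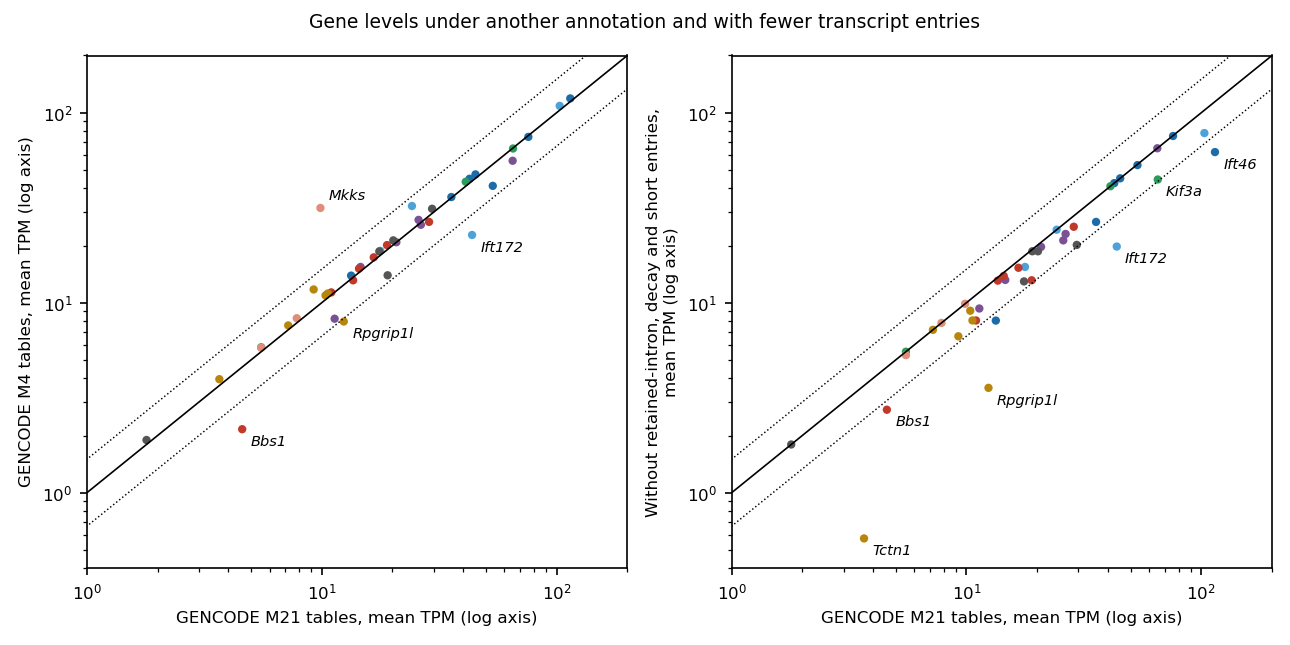
Mean TPM of each member in the M21 tables (x, log axis) against the GENCODE M4 tables (left) and against M21 without retained-intron, decay and under-300-nt entries (right), coloured by role as in the plot of levels; solid line equality, dotted lines 1.5-fold. Mkks lies above the left band and Ift172, Bbs1 and Rpgrip1l below it; Tctn1 and Rpgrip1l fall farthest on the right.

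The same reads were also quantified by the submitters with the older GENCODE M4. Of 41 members, 4 (9.76%) differed by over 1.5-fold between annotations, against 6.51% of protein-coding genes. Mkks was 3.19 times higher in M4 (31.5 and 31.6 TPM) than in M21. In M21, 2 short protein-coding entries on the same strand, AL731706.1 and AL731706.2, share 944 and 180 nt of Mkks exons. The first was at 20.8 and 22.5 TPM, the second at 20.95 and 22.3 TPM. Reads of the shared exons could not be assigned to 1 gene with certainty. Ift57 (1.33-fold) and Cc2d2a (1.27-fold) were the next highest in M4. Bbs1 was at 2.25 and 2.07 TPM in M4, 0.471 times its M21 level, Ift172 at 23.1 and 22.4 TPM (0.521 times) and Rpgrip1l at 7.48 and 8.45 TPM (0.642 times). In M4, Ift172 exceeded Ift80 by 1.21-fold, inside the spread.

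Exons of 7 members overlap another gene on the opposite strand. Beside Tctn1 with Hvcn1 and Mkks with Slx4ip (172 nt), these are Bbs4 with Adpgk (194 nt; Adpgk at 38.7 and 37.8 TPM), Ofd1 with Trappc2 (131 nt), Ift57 with Gm15518 (225 nt), Ift88 with Ift88os (67 nt) and Bbs12 with Cetn4 (32 nt). The overlap was at most 7.86% of exon bases for these 5, and the partners of Ift57, Ift88 and Bbs12 were at 2.96 TPM or less.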

How the data were processed

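Whole limb of embryonic mouse was measured in 2 libraries, whose replicate numbers come from the labels. Expected counts, deposited by the authors for genes and for transcripts, have the column layout of RSEM and are estimates that need not be whole. The authors normalized these to TPM, the deposited unit used for levels, and to FPKM, deposited and used here only as an alternative. The authors made 1 set of tables per annotation, GENCODE M21 and M4, both on mm10 according to the labels and the deposited read-me texts. Which aligner ran, in what version, and whether strand was used is not given in the sources used here. Labels call the samples biological replicates of pooled embryos. The p-values cover counting error only and do not measure the spread between pools.

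M21 was the main annotation, whose annotation also gave symbols, types and coordinates. Library sizes and gene counts omit tRNA and spike-in entries. Genes at 1 TPM or more in both libraries were called detected. Rounded expected counts of the libraries were compared with an exact binomial test (two-sided; TMM sizes from edgeR 4.0.16), adjusted by Benjamini-Hochberg over 15926 genes at a mean of 1 TPM, at an adjusted p under 0.05 and 2-fold. Log2 differences use a pseudocount of 1 TPM, which understates changes of low genes. A transcript's share is its percent of the TPM summed over its gene. Functions were tested on simulated data.

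All members were named, with the 2 highest genes and the lowest of each other cilium list, all RFX factors, members with other than a protein-coding lead, the 6 most abundant with a second transcript of 25%, and the 3 per direction that differed most between annotations. The members, lists and pairs were chosen with earlier results of these data known. The promoter letters, the splice differences and the removal of retained-intron, decay and under-300-nt entries were chosen after the values were seen. Alternatives were other minima, scalings with DESeq2 1.42.0, pseudocounts, FPKM, M4, other spreads, and either library alone. Promoter sequences are RefSeq's, and transcript sequences GENCODE M21's.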

Additional observations from a re-analysis of the deposited data

How the results depend on the processing

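The count of members detected at 1 TPM was 38 at a minimum of 5 TPM and 28 at 10 TPM, 41 in M4, FPKM and either library alone, and 40 without retained-intron, decay and under-300-nt entries, a setting chosen after seeing the data. The median of 17.76 TPM was 18.74 in M4, 11.5 in FPKM and 19.4 with TPM rescaled over genes outside the mitochondrial genome. It was 15.3 without the entries named above, and 17.43 to 17.55 with either library left out. The number of members called between libraries was 4 with no minimum fold and 0 in the other 6 settings. Pairs past the spread numbered 9 to 17 over 7 settings against 13. Other percentiles and numbers of nearest genes alter the spread and no ratio. A direction could thus change only in M4, in reads not divided by length and without the entries named above. Of 147 pair ratios, 117 kept direction and side of the spread, 9 were no longer past it and 15 came past it. Another 3 turned sign with neither value past it, and 3 reversed. The last were Kif3a over Kifap3 in reads not divided by length (log2 ratio -0.51), and Cc2d2a over Rpgrip1l in reads (0.58) and without the entries named above (0.91); length normalization and the removed entries are by construction what differs. The median log2 difference of the members was between -0.0084 and 0.032. It was below 0 where TPM was rescaled over genes outside the mitochondrial genome or CPM was used. Members led by a protein-coding transcript numbered 37 in M4, of 40 whose type could be read there, and 38 to 39 of 41 in the other settings.

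No paired analysis was possible because there is 1 group, and leaving out a library was not possible for comparisons between the 2 libraries. Genes with few reads, and short entries, limit the levels of Tctn1, Rpgrip1l and Bbs1.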
